A study of Homo sapiens with 4 samples.

Results

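The distal part of the long arm of chromosome 17 was examined for CHD5 binding and for the histone mark H3K27me3 in SH-SY5Y neuroblastoma cells. All rows of the CHD5 and H3K27me3 lists on chromosome 17 that start at or above 47 Mb (hg19) were taken, and these are called the distal 17q segment. It held 902 of 32543 CHD5 peaks and 1937 of 257073 H3K27me3 regions, and its last listed region ended at 81190749. Chromosome 17 below 45 Mb, with 670 CHD5 peaks and 6322 H3K27me3 regions, served as the reference. The stretch from 45 to 47 Mb belongs to neither part and held 47 and 796.

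Gain of the distal long arm of chromosome 17 is one of the most frequent chromosome changes in neuroblastoma and is linked to poor outcome. BIRC5, which encodes the apoptosis inhibitor survivin, and PPM1D, a phosphatase that damps the p53 response, are among the genes of this arm studied as candidates for its effect. CHD5 is a chromodomain helicase of NuRD-type remodelling complexes and a tumour suppressor candidate on the short arm of chromosome 1. H3K27me3 is written by Polycomb repressive complex enzymes and marks silent developmental genes, often over long domains.

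The series holds 4 libraries of cells kept in 10 uM retinoic acid for 8 days, each the only one of its group. The CHD5 library is a streptavidin pull-down from cells expressing FBio-CHD5, and its control is the same pull-down from cells expressing FBio-Ctrl. The H3K27me3 library and the input came from the FBio-CHD5 cells. The labels do not say how much tagged CHD5 these cells made or whether they were a clone. Only the CHD5 and H3K27me3 lists were used here, and they give no read counts, so depth is unknown. With 1 library per group no value has a replicate error. Intervals are exact 95% binomial intervals for counting error only, and they treat peaks as independent although peaks cluster. Copy number was not measured here, so a gain of this arm, or of any other chromosome, and a property of its chromatin cannot be told apart in any comparison between places in the genome. Gene names are not given at positions, because the annotation at hand belongs to another build.

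CHD5 peaks were more closely spaced in the segment than in the reference part of chromosome 17, and H3K27me3 regions were fewer. The segment had 26.4 CHD5 peaks per Mb against 14.9 in the reference, a ratio of 1.77, and 10.9 on the other autosomes. Against chromosome 17 from 26 to 45 Mb, with 19.5 CHD5 peaks per Mb, the ratio was smaller, at 1.35. By the length of windows that hold a region of either list, the ratio to the reference was 1.69. The stretch from 45 to 47 Mb, in neither part, had 23.5 CHD5 peaks and 398 H3K27me3 regions per Mb. The segment had 56.7 H3K27me3 regions per Mb against 140 in the reference, a ratio of 0.403, and 82.5 on the other autosomes. CHD5 peaks covered 72.4 kb per Mb of the segment and 26.5 kb per Mb of the reference. H3K27me3 covered 25.7 kb and 44.4 kb per Mb. On the other autosomes it covered 28.2 kb per Mb, so by covered length the segment lay near them and the reference above. The lower density of H3K27me3 depends on what is compared: the ratio was 0.216 without the 2 segment windows richest in the mark, and 0.687 against the other autosomes. The first of these could only lower the ratio, since no reference window was taken out. No test was made, since places on a chromosome are not replicates.

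In windows of 1 Mb, counted by the start of each region, CHD5 was present throughout the segment. All 35 windows held a CHD5 peak, and 23 held at least 20, against 16 of 43 in the reference and 19.3% of all autosomal windows with a region of either list. Over the 34 full windows the number of CHD5 peaks ran from 5 to 59, with a median of 25.5. In the reference it ran from 0 to 33, with a median of 16. The ranges overlapped, and the segment reached counts that no reference window had.

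The 5 windows with the most CHD5 peaks lay apart from one another except for the last pair. The window from 55 to 56 Mb held 59 peaks and no H3K27me3 region. That from 48 to 49 Mb held 54 peaks and 33 regions. The window from 71 to 72 Mb held 49 peaks and 19 regions. The adjoining windows from 74 to 75 and from 75 to 76 Mb held 44 and 42 peaks, with 11 H3K27me3 regions and none. None of the 5 held more than 33 H3K27me3 regions.

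**Figure D1:**
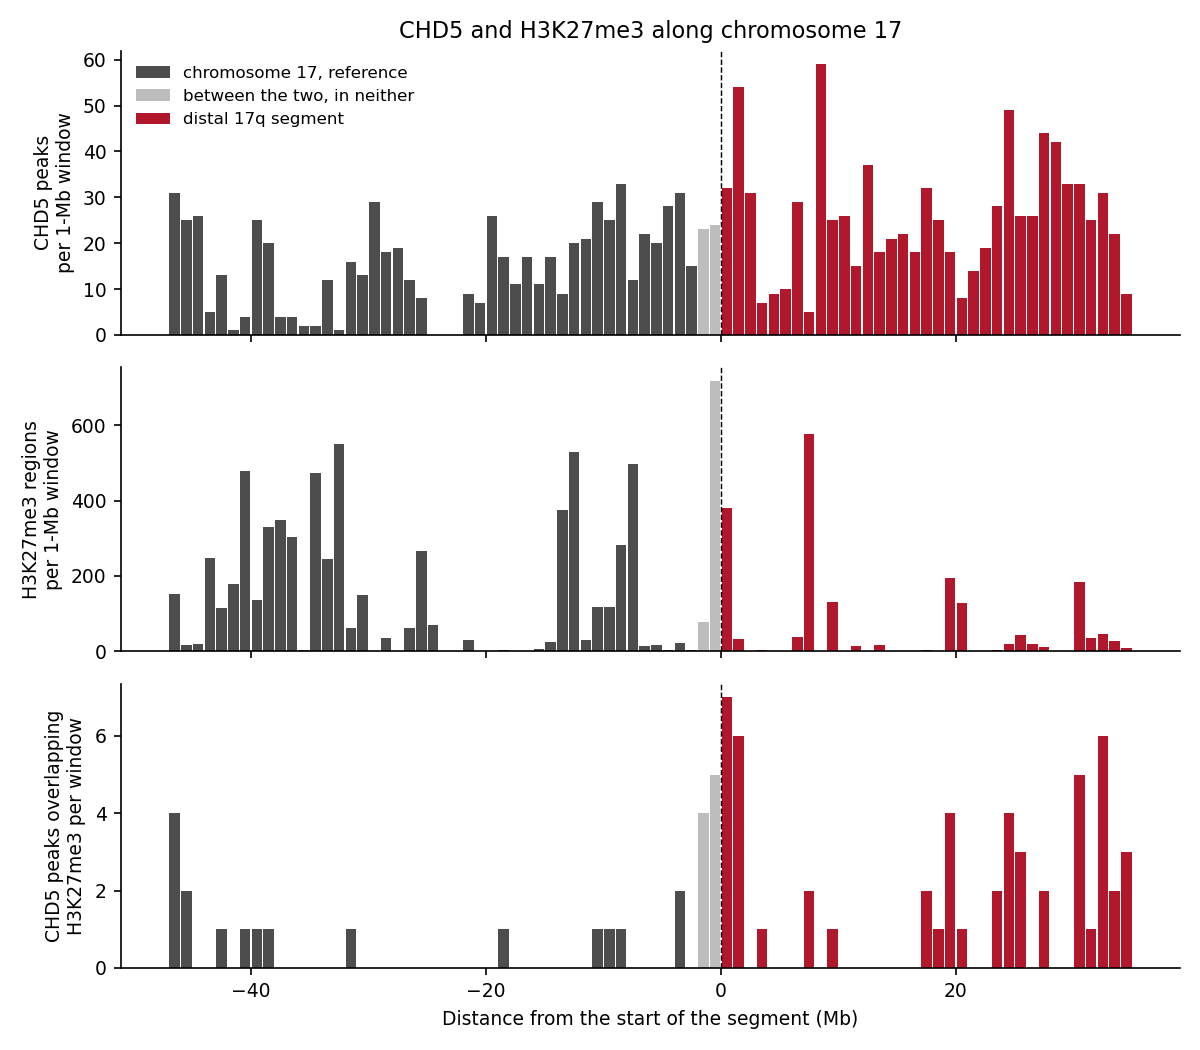
CHD5 peaks (top), H3K27me3 regions (middle) and CHD5 peaks overlapping H3K27me3 (bottom) in each 1-Mb window of chromosome 17, against the distance in Mb from the start of the segment. Bars are counts of 1 library each. CHD5 reaches 59 peaks in a segment window and at most 33 in the reference, while H3K27me3 stands in a few tall windows of the segment and overlaps are seen on both sides of its start and in its distal part.

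H3K27me3 was concentrated in a few windows. The 6 richest windows held 1594 of the 1937 regions, or 82.3%, and the 2 richest held 958, or 49.5%. At least 100 regions were found in 6 of 35 segment windows, against 20 of 43 in the reference and 26.3% of autosomal windows. At most 10 regions were found in 18 of 35, against 11 of 43 in the reference and 54.2% of autosomal windows. By this count of poor windows the segment lay near the autosomal share, and the reference was the part rich in the mark.

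The richest window, from 54 to 55 Mb, held 578 regions that covered 254 kb. It held 5 CHD5 peaks, the lowest count of the full windows. The window from 47 to 48 Mb followed with 380 regions and 32 CHD5 peaks, and that from 66 to 67 Mb with 194 and 18. The window from 77 to 78 Mb had 183 regions and 33 peaks, and that from 56 to 57 Mb had 130 and 25. The sixth, from 67 to 68 Mb, had 129 regions and 8 peaks. Windows rich in H3K27me3 were therefore of both kinds, with CHD5 counts below and above the segment's median.

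Joining H3K27me3 regions across gaps of up to 100 kb showed how these stretches lay. The block chr17:46209509-47349085 crossed the start of the segment, held 1081 regions that covered 63.2% of it, and met 11 CHD5 peaks, 9 of which overlapped a region. The block chr17:53934252-54858603 held 614 regions in 924 kb and met 2 CHD5 peaks, or 2.16 per Mb. The block chr17:66740218-67201054 held 304 regions in 461 kb and met 1 CHD5 peak. These last blocks were nearly free of CHD5 compared with the segment's 26.4 peaks per Mb.

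Other blocks of the mark were thinner and held CHD5 at differing densities. The block chr17:77093913-77816903 held 183 regions that covered 10.1% of it, and met 22 CHD5 peaks, or 30.4 per Mb, 5 of them overlapping a region. The block chr17:56206494-56521142 held 130 regions and met 4 peaks, or 12.7 per Mb, 1 of them overlapping. The block chr17:47844121-48089560 held 31 regions and met 14 peaks, 6 of them overlapping. The block chr17:80278432-80339750 held 28 regions and met 3 peaks, 2 of them overlapping. The short block chr17:79316290-79393154 held 27 regions, and all 5 CHD5 peaks that it met overlapped H3K27me3. The block size of 100 kb was chosen after the windows had been seen.

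Long stretches without one profile differed in what the other showed there. The longest stretch without CHD5, chr17:53908895-54668934, spanned 760 kb and held 463 H3K27me3 regions. Another, chr17:66735361-67141766, spanned 406 kb and held 282. The remaining 3 of the 5 longest, chr17:52299738-52753412, chr17:50351787-50771077 and chr17:51884896-52295659, spanned 454, 419 and 411 kb and held 1, 0 and 1 region. Stretches without CHD5 were thus either rich in H3K27me3 or nearly free of both.

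The longest stretches without H3K27me3 all held CHD5. The longest, chr17:74583719-76461435, spanned 1878 kb and held 76 CHD5 peaks, or 40.5 per Mb. The stretch chr17:54858604-56206493 spanned 1348 kb and held 69, or 51.2 per Mb. The stretches chr17:68545977-70116018, chr17:60353711-61615917 and chr17:67201055-68459050 spanned 1570, 1262 and 1258 kb and held 27, 28 and 16 peaks. Between 12.7 and 22.2 peaks per Mb lay in these last 3, below the density of the whole segment.

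CHD5 was packed most tightly in chr17:55594716-55844715, the 250-kb stretch with the most peaks. It held 26 peaks that covered 50.2% of the bases, with a median width of 4258.5 bp and no H3K27me3 region. The nearest H3K27me3 region to any of these peaks was 363 kb away. The next 4 stretches, placed so that their starts lay at least 250 kb apart, were chr17:48007935-48257934 with 21 peaks, chr17:59077299-59327298 and chr17:74461377-74711376 with 20 each, and chr17:77688552-77938551 with 19. They were covered by CHD5 over 17.4% to 28.9% of their bases. In the order given, these next 4 held 5, 0, 1 and 2 peaks that overlapped H3K27me3. The size of the stretch was chosen after the data had been seen.

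CHD5 peaks were wider in the segment. The median width was 2353 bp, with quartiles of 1709 and 3281 bp, against 1502 bp, with quartiles of 1125 and 2005.5 bp, in the reference, and 1639 bp on the other autosomes. The ratio to the reference was 1.57 and stayed between 1.44 and 1.64 in the 5 alternatives run. Peaks of at least 5 kb numbered 65 in the segment, or 7.21%, against 12 in the reference, or 1.79%, and 2.60% on the other autosomes. The H3K27me3 list went the same way: its median width was 322 bp in the segment, 237 bp in the reference and 240 bp on the other autosomes. On chromosome 17 from 26 to 45 Mb the H3K27me3 median was 271 bp, nearer to the segment, and the CHD5 median was 1438 bp.

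The difference in CHD5 width ran along the whole segment. In all 35 segment windows at least 5 CHD5 peaks were listed, and the median width was at least 2000 bp in 27 of them. This was so in 2 of 35 reference windows with as many peaks, and in 18.9% of such windows on all autosomes. The lowest window median was 1800 bp in the segment and 1144 bp in the reference, and the highest were 3467 and 2105 bp. The ranges met only between 1800 and 2105 bp.

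The windows around the start of the segment were looked at one by one. From 38 to 40 Mb the window medians were 1720 and 1999.5 bp, the latter above the first window of the segment. From 40 to 44 Mb they were 1400, 1323, 1288.5 and 1519 bp. The next window, from 44 to 45 Mb, had 1717 bp, and the windows between segment and reference had 2093 and 1819 bp. The first windows of the segment had 1941.5, 2536 and 3054 bp. The medians thus varied on both sides of 47 Mb, and the rule does not place an edge there. Both windows from 45 to 47 Mb already lay within the range of the segment's windows, 1800 to 3467 bp. CHD5 peaks from 45 to 47 Mb covered 62.2 kb per Mb, nearer to the segment than to the reference. Next to the limit itself, the last CHD5 peak below it, chr17:46968633-46969742, was 1110 bp wide with a score of 59.7, and the first one above it, chr17:47071167-47072252, was 1086 bp wide with a score of 64.3.

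**Figure D2:**
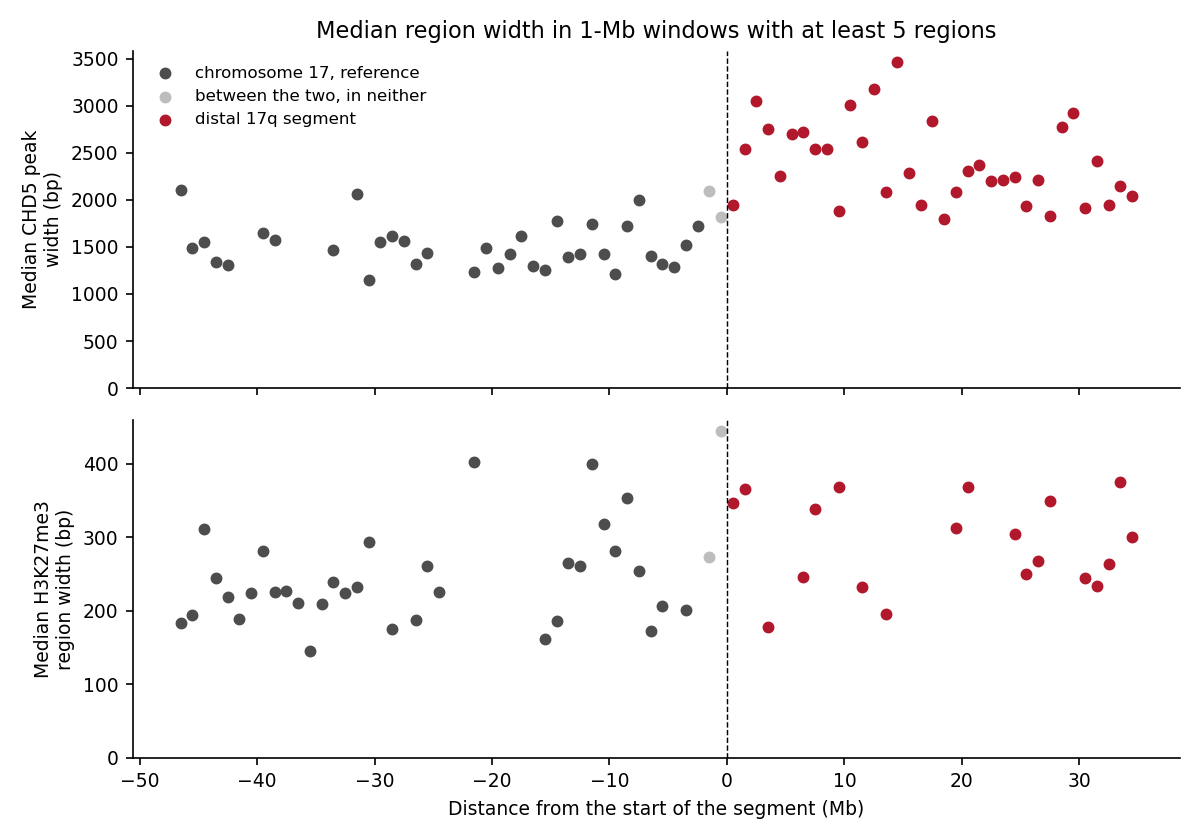
Median width in bp of CHD5 peaks (top) and H3K27me3 regions (bottom) in 1-Mb windows with at least 5 regions, against the distance in Mb from the start of the segment. Each point is 1 window. CHD5 medians lie between 1800 and 3467 bp in the segment and between 1144 and 2105 bp in the reference, and H3K27me3 medians overlap more.

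H3K27me3 widths by window overlapped more than those of CHD5. Among windows with at least 5 regions, the median width ran from 178 to 375.5 bp over 18 full windows of the segment, with a middle value of 286 bp. Over 34 windows of the reference it ran from 145 to 402 bp, with a middle value of 225.5 bp. No window of the segment lay above the highest of the reference.

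Scores were higher in the segment as well, so widths were compared within bands of the authors' score. The median score of CHD5 peaks was 141 in the segment, 111 in the reference and 117 on the other autosomes. Peaks with a score of 50 to 100 had a median width of 1618 bp in the segment (301 peaks) and 1107 bp in the reference (285 peaks), a ratio of 1.46. At scores of 100 to 200 the medians were 2277 and 1542.5 bp, and at 200 to 400 they were 3024.5 and 2234 bp. At 400 and above they were 4648 bp (124 peaks) and 3370.5 bp (66 peaks), a ratio of 1.38. Segment peaks were thus wider in each of the 4 bands, by ratios of 1.35 to 1.48.

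The same held for H3K27me3 with smaller ratios. Regions with a score of 50 to 100 had a median width of 217 bp in the segment and 178 bp in the reference, a ratio of 1.22. The ratios in the other bands were 1.12, 1.14 and 1.12. The median score of H3K27me3 regions was 109 in the segment and 88.2 in the reference. On chromosome 17 from 26 to 45 Mb it was 106, close to that of the segment. Widths within score bands were not computed for that part. Scores were not compared between the lists.

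**Figure D3:**
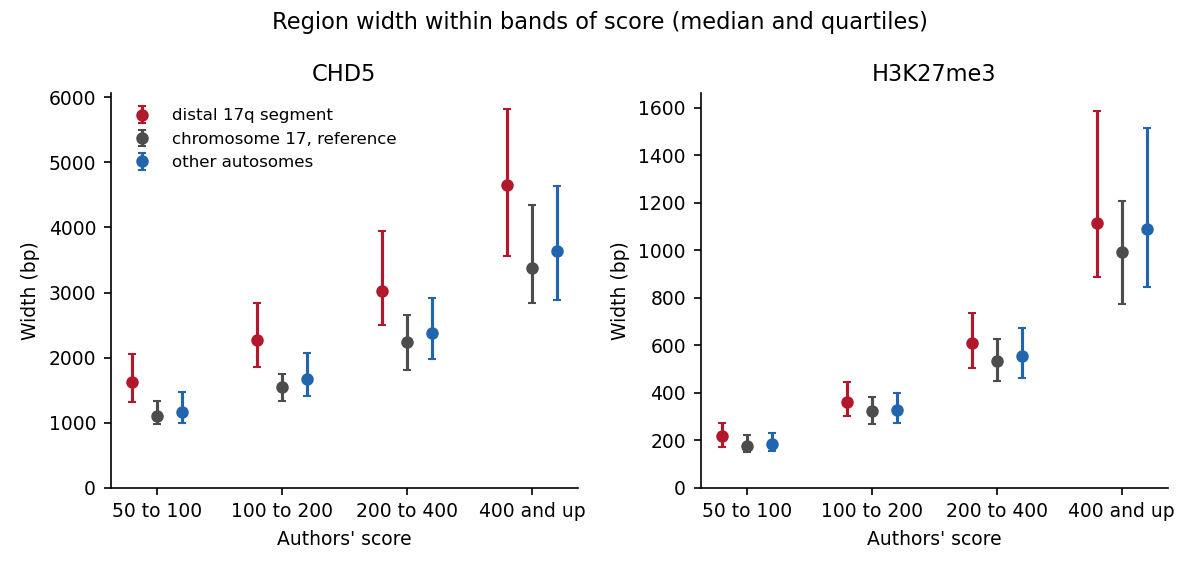
Width in bp of CHD5 peaks (left) and H3K27me3 regions (right) in 4 bands of the authors' score, for the segment, the reference part of chromosome 17 and the other autosomes. Points are medians and bars run between the quartiles. The segment's CHD5 medians lie above the reference in each band, 1618 against 1107 bp in the lowest and 4648 against 3370.5 bp in the highest.

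Wide CHD5 peaks were not particular to this segment. Of windows with at least 5 CHD5 peaks, 109 of 129 on chromosome 7 had a median width of at least 2000 bp, or 84.5%, against 77.1% in the segment. Chromosome 1 followed with 96 of 205, or 46.8%, and chromosome 2 with 47 of 191, or 24.6%. Each of the other autosomes, chromosome 17 aside, had between 0% and 12.5%. The reference part of chromosome 17, with 5.71%, lay within that last range. Copy number was not measured for chromosomes 7, 1 and 2 either.

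**Figure D4:**
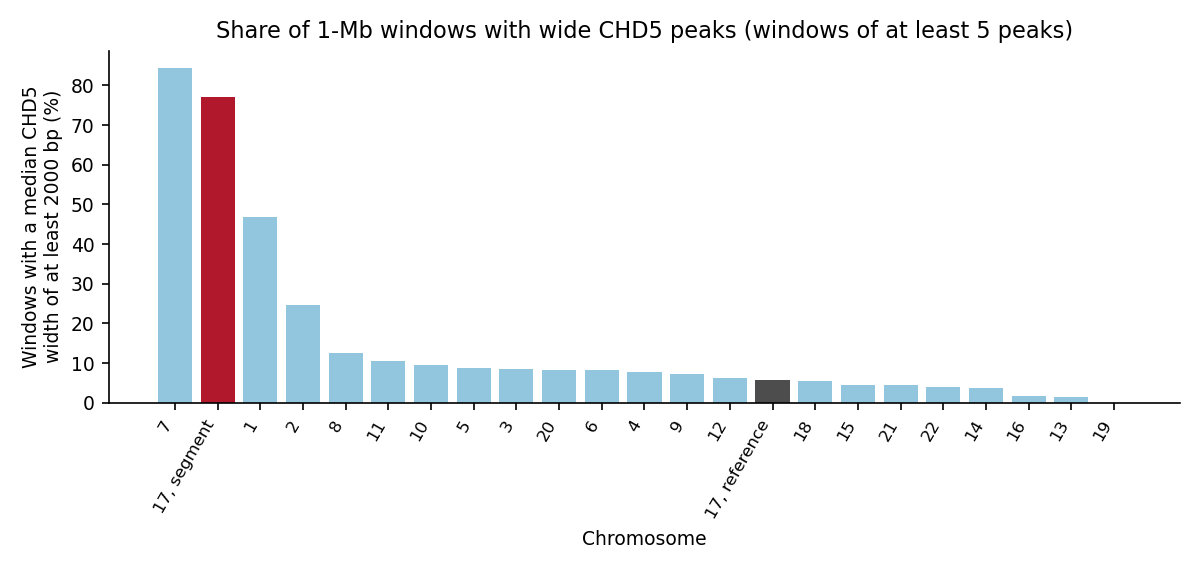
Share in percent of 1-Mb windows whose median CHD5 peak width was at least 2000 bp, of windows with at least 5 CHD5 peaks, by autosome, with chromosome 17 given as its segment and its reference part. Chromosome 7 (84.5%) and the segment (77.1%) stand highest, and the reference part of chromosome 17 (5.71%) stands among the low chromosomes.

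The 10 CHD5 peaks of the segment with the highest scores ran from 1063 to 2064. None overlapped an H3K27me3 region, where 5.88% of all segment peaks did, so that a count of 0 in 10 says nothing about these peaks. The highest, chr17:55695938-55706004, scored 2064, was 10067 bp wide and lay 500.5 kb from the nearest region. It was followed by chr17:78716152-78719433, with a score of 2010 and a width of 3282 bp, 236 kb away. The third, chr17:74533756-74544723, scored 2009 over 10968 bp at a distance of 38.1 kb. The nearest to the mark was chr17:72752362-72758476, with a score of 1314, 17.9 kb away.

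The other 6 of these peaks lay between 144 and 580 kb from the mark. They were chr17:59456834-59464314 with a score of 1664, chr17:75875496-75881416 with 1450, chr17:70369484-70377622 with 1410, chr17:69604412-69606385 with 1171, chr17:49777859-49783907 with 1142 and chr17:55679773-55685032 with 1063. The peak at 69604412 was 1974 bp wide and the rest between 5260 and 8139 bp. A high score thus came with a wide peak in most cases, but not in all.

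The widest peaks clustered in the densest stretch. The 3 widest, chr17:55611302-55624483, chr17:55738195-55751061 and chr17:55636433-55647528, spanned 13182, 12867 and 11096 bp. Their scores were 355, 919 and 658. The fourth was the third-highest peak by score, and the fifth, chr17:59230393-59240579, was 10187 bp wide with a score of only 166. None of the 5 overlapped H3K27me3, a number too small to set against the 5.88% of all segment peaks.

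Overlap between CHD5 and H3K27me3 was more frequent in the segment than in the reference, although the segment held less of the mark. In the segment 53 of 902 CHD5 peaks overlapped a region by at least 1 bp, or 5.88% (interval 4.43% to 7.62%). In the reference 17 of 670 did, or 2.54% (1.48% to 4.03%), and over all chromosomes the share was 2.19%. The ratio of the segment to the reference was 2.32, and 3.63 when the reference was cut to the part from 26 to 45 Mb, where 6 peaks overlapped. With all of chromosome 17 below 47 Mb as the reference the ratio was 1.62, and with peaks within 1 kb of a region counted it was 1.59. For scores at or above the list median, with 22 and 5 overlapping peaks, and for peaks covered over at least 50%, with 20 and 7, the 95% interval of the ratio, from a normal approximation on the log scale, reached below 1, at 0.979 to 6.69 and 0.903 to 4.99. Wider peaks meet a region more easily, so the middle 500 bp of each peak were also used. By that measure 3.66% of segment peaks and 1.49% of reference peaks overlapped, from 33 and 10 peaks, a ratio of 2.45.

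Closeness to the mark without overlap went the other way against the whole reference. Between 0 and 10 kb from a region, but not overlapping it, lay 50 segment peaks, or 5.54%, and 56 reference peaks, or 8.36%, against 5.29% on the other autosomes. With the overlapping peaks counted in, the shares within 10 kb were 11.4% and 10.9%. Within 100 kb lay 38.2% and 46.9%. The median distance was 144 kb in the segment, with quartiles of 43.5 and 313 kb, and 108 kb in the reference, with quartiles of 39.8 and 202 kb. On chromosome 17 from 26 to 45 Mb, 5.93% of peaks lay within 10 kb without overlap and 39.6% within 100 kb. The median distance there was 141 kb, so by these measures the segment was close to that part. With overlapping peaks counted in, the share within 10 kb was lower there than in the segment, at 7.55%.

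The share of overlapping peaks varied along the segment. For description it was divided, after the windows had been seen, into 4 stretches. From 47 to 49 Mb 13 of 86 peaks overlapped, or 15.1% (8.30% to 24.5%). From 49 to 64 Mb it was 4 of 332, or 1.20% (0.329% to 3.06%), the lowest share. From 64 to 77 Mb 19 of 364 peaks overlapped, or 5.22% (3.17% to 8.03%), and from 77 Mb to the end 17 of 120, or 14.2% (8.47% to 21.7%). The high share of the first stretch runs on across the 47 Mb limit: from 45 to 47 Mb, outside the segment, 9 of 47 peaks overlapped, or 19.1% (9.15% to 33.3%). A high share near a chromosome end was also seen in the reference. There 4 of 31 peaks overlapped from 0 to 1 Mb, or 12.9%, and 2 of 25 from 1 to 2 Mb, or 8%.

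H3K27me3 was unevenly spread over these stretches. From 49 to 64 Mb it had 53.1 regions per Mb, but 578 of those 797 regions lay in the window from 54 to 55 Mb. Without that window the stretch had 15.6 per Mb, and 2 of 327 CHD5 peaks overlapped, or 0.612%. From 64 to 77 Mb there were 32.8 regions per Mb. The end stretches held 206.5 and 71.8 per Mb. Median distances to the mark were 194 and 195 kb in the inner stretches, and 40.0 and 30.6 kb in the outer ones. CHD5 density was 22.1 and 28.0 peaks per Mb in the inner stretches and 43.0 and 28.6 in the outer ones.

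**Figure D5:**
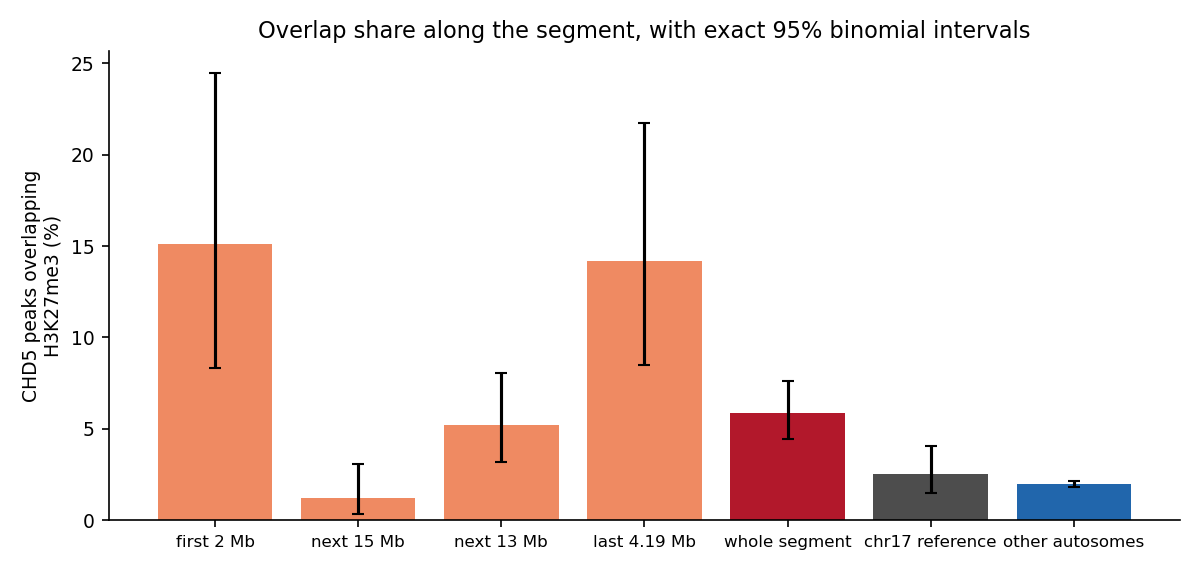
Share in percent of CHD5 peaks that overlap H3K27me3 in 4 consecutive stretches of the segment, in the whole segment, in the reference part of chromosome 17 and on the other autosomes. Bars are shares and lines are exact 95% binomial intervals for counting error. The outer stretches stand at 15.1% and 14.2%, and the stretch from 49 to 64 Mb at 1.20%.

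By window, 18 of 35 held an overlapping peak, a count given for description and not set against the reference. A window with more CHD5 peaks holds an overlap more easily. The median was 25.5 CHD5 peaks in full segment windows and 16 in reference windows. The counts of overlapping peaks were highest from 47 to 48 Mb, with 7 of 32 peaks, from 48 to 49 Mb and from 79 to 80 Mb, with 6 of 54 and 6 of 31, and from 77 to 78 Mb, with 5 of 33. The windows starting at 66 and 71 Mb held 4 each, and those starting at 72 and 81 Mb held 3 each. There were 2 in those starting at 54, 64, 70, 74 and 80 Mb, and 1 in those starting at 50, 56, 65, 67 and 78 Mb. The last window, which ends with the listed regions, thus had 3 overlapping peaks among only 9.

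Overlapping peaks were often neighbours. Of the 53, 33 stood next to another overlapping peak in the list, whatever the distance between them. The same count was not made for the reference. A close cluster was formed by chr17:48042137-48043098, chr17:48045732-48047334 and chr17:48048828-48051348, with 962, 1011 and 2484 bp shared. The last of the 3 had 98.5% of its width inside H3K27me3, in a domain of 13.3 kb. A second cluster, chr17:79365018-79366683, chr17:79367666-79369287 and chr17:79377214-79378301, shared 1537, 1375 and 981 bp with 1 domain of 21955 bp.

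The other peaks with the longest shared stretches lay apart from these clusters. The peak chr17:81081358-81083889 shared 1997 bp, or 78.9% of its width, in a domain of 2.94 kb. The peak chr17:80287813-80291785 shared 1845 bp and chr17:80338066-80340044 shared 1519 bp. Further towards the centromere, chr17:56466483-56470707 shared 1712 bp with 7 regions of a domain of 18.3 kb, and chr17:71637402-71639729 shared 1358 bp. The peak chr17:54668935-54671470 shared 1449 bp with a domain of 39.2 kb and was 1 of the 2 overlapping peaks in the window richest in the mark. The tenth, chr17:77815617-77820282, shared 1287 bp, 27.6% of a peak with a score of 452.

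Most overlaps were partial. The shared length ran from 98 to 2484 bp with a median of 736 bp, and the share of the peak inside H3K27me3 ran from 3.95% to 100%, with a median of 35.6%. At least 50% of the peak was covered in 20 of 53. Of the 53, 21 lay wholly inside a domain made by joining regions across 3 kb, and 23 met a domain of at least 5 kb. Peaks wholly inside a domain and peaks that reached beyond one were thus both present. Some of the latter were wider than the domain they met, as at chr17:79392222-79394574, 2353 bp wide with a domain of 136 bp.

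Overlapping peaks of the segment scored lower and were narrower than its other CHD5 peaks. Their median score was 112 against 144 for the 849 others, and their median width was 1974 against 2388 bp. Scores under 100 were found in 24 of 53, or 45.3%, and in 277 of 849, or 32.6%. Scores of 400 or more were found in 3 and 121, or 5.66% and 14.3%. The highest score of an overlapping peak was 500, at chr17:48639516-48644563.

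H3K27me3 domains in the segment were touched by CHD5 more often. Joining regions across 3 kb gave 208 domains in the segment and 669 in the reference, or 6.08 and 14.9 per Mb. CHD5 touched 43 of 208 in the segment, or 20.7% (15.4% to 26.8%), and 16 of 669 in the reference, or 2.39% (1.37% to 3.85%), a ratio of 8.64. On the other autosomes it touched 1.73%. The ratio was 4.55 against the part of the reference from 26 to 45 Mb, 5.34 with joining across 10 kb, and 8.84 with the middle 500 bp of each CHD5 peak. With all of chromosome 17 below 47 Mb as the reference it was 6.26. The high share runs on across the 47 Mb limit: from 45 to 47 Mb CHD5 touched 7 of 27 domains, or 25.9% (11.1% to 46.3%).

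The higher share was seen in each class of domain width. Under 5 kb CHD5 touched 26 of 121 domains in the segment and 7 of 424 in the reference. From 5 to 20 kb it touched 12 of 69 and 6 of 186. At 20 kb and above it touched 5 of 18 and 3 of 59. CHD5 peaks covered more of the segment, 72.4 against 26.5 kb per Mb, and the part of that cover in the share of touched domains was not tested.

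H3K27me3 regions touched by CHD5 scored somewhat higher than the others. In the segment 107 of 1937 regions were touched, or 5.52%, against 0.459% in the reference. Their median score was 125 against 108 for untouched regions, and their median width was 352 against 321 bp. Domains of at least 5 kb numbered 87 and held 1655 regions, or 85.4%, close to the 83.7% of the reference. Whether domains were wider than in the reference depended on the setting, as the direction turned with the reference from 26 to 45 Mb, with joining across 10 kb and without the 2 windows richest in the mark. Those 2 windows were taken out of the segment only. Against the reference from 26 to 45 Mb, the number of domains per Mb was also closer, with a ratio of 0.876 in place of 0.409.

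The widest domains lay in 4 windows. The widest, chr17:47025324-47188628, spanned 163 kb with 200 regions that covered 73.9% of it, and held 2 CHD5 peaks. The next, chr17:47192356-47260273, spanned 67.9 kb and held none. The domain chr17:54737204-54792010 spanned 54.8 kb and chr17:47277494-47327556 spanned 50.1 kb, and each held 1. The fifth, chr17:54646630-54685836, spanned 39.2 kb and also held 1.

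The remaining 5 of the 10 widest domains held no CHD5 peak. They were chr17:56311565-56343364, chr17:54496180-54527780, chr17:54552623-54582049, chr17:66811750-66840004 and chr17:54585756-54612098, and spanned 26.3 to 31.8 kb. Within 100 kb of each of these 10 domains lay at most 3 further CHD5 peaks. So CHD5 was found in 4 of the 5 widest domains and in none of the next 5. It touched 5 of 18 segment domains of at least 20 kb and 20.7% of all segment domains. A wider domain meets a peak more easily, and these 10 domains are too few to read a trend with width.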

How the data were processed

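Chromatin immunoprecipitation libraries of SH-SY5Y cells were sequenced. Both lists hold MACS peaks of 1 library, per the file headers. Coordinates are in hg19, per the submitters' processing notes. How reads were aligned, which MACS version and threshold were run and against which background library: not given in the sources used here. A score for each region was made by the authors' peak caller and deposited with the list. Its lowest value is 50 in both lists, its scale is not stated, and it was used only within a list. A caller given no matched background can also list places with more DNA copies, so counts along a chromosome depend on that choice.

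Positions are counted from 1. Overlap meant 1 shared bp, and bedtools 2.31.1 gave the same 53 overlapping peaks as the routine used, which was also checked on simulated intervals. H3K27me3 regions up to 3 kb apart were joined into domains. Densities use the length up to the last listed region, 34.2 Mb for the segment. Windows of 1 Mb take regions by their start. Python 3.11.15 was used with scipy 1.17.1, pandas 2.3.3, matplotlib 3.10.9 and numpy 2.4.6. No test across groups was made.

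Named positions are the 5 windows with the most CHD5 peaks or most H3K27me3 regions, windows with an overlap, the 10 highest and 5 widest CHD5 peaks, the 10 overlaps of largest shared length, the 10 widest domains, the 5 longest stretches without either profile, and the rows at 47 Mb. Other positions were chosen after their values were seen, as were the blocks, stretches and score bands. The members and lists were chosen with earlier results of these data known. The gene lists, also drawn up, could not be placed on this build, and no sequence is printed.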

Additional observations from a re-analysis of the deposited data

How the results depend on the processing

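No paired analysis was possible because each group has 1 library. Peaks per Mb, shares and medians are given as ratios of the segment to the reference. The reference below 47 Mb, the length of filled windows, the runs without the 2 richest windows or the window from 54 to 55 Mb and the middle 500 bp of each peak were chosen after seeing the data.

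The higher CHD5 density kept its direction in 7 of 7 alternatives (1.35 to 2.41), and the lower H3K27me3 density in 7 of 7 (0.216 to 0.687). For H3K27me3 density, the run without the 2 richest segment windows could only lower the ratio, since the reference kept its own rich windows. The other alternatives gave 0.347 to 0.687. The higher overlap share kept its direction in 10 of 10 (1.59 to 3.63), the wider CHD5 peaks in 5 of 5, the higher CHD5 score in 5 of 5 (1.04 to 1.29) and the share of touched domains in 9 of 9 (4.55 to 12.9). With the reference from 26 to 45 Mb the ratios were 1.35 for CHD5 peaks, 0.526 for H3K27me3 regions, 0.876 for domains per Mb, 4.55 for touched domains and 0.736 for domain width, which turned. Against the other autosomes they were 2.41 for CHD5 peaks, 0.687 for H3K27me3 regions, 0.518 for domains per Mb and 1.94 for domain width. With scores at or above the list median they were 2.26 for CHD5 peaks and 0.477 for H3K27me3 regions. H3K27me3 regions gave 0.347 with the segment from 50 Mb and 0.374 with the reference below 47 Mb. Without the windows from 47 to 48 and from 54 to 55 Mb, the ratios were 0.216 for H3K27me3 regions, 0.318 for domains per Mb and 0.803 for domain width, which turned from 1.25. In that run the reference kept all its windows. Joining across 10 kb gave 0.623 for domains per Mb and 0.347 for domain width, which turned too. The cause was not tested for any of these. Windows moved by 0.5 Mb gave 26 in place of 23 with at least 20 CHD5 peaks, and 5 in place of 6 with at least 100 H3K27me3 regions. Depth is unknown, so its bearing on the number and width of regions was not measured.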
